A study of Homo sapiens with 9 samples.

Results

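Retinoic acid (RA) at 1 uM was compared with RA at 0.01 uM, a 100-fold lower dose, in NB4 cells kept for 24 h in either. NB4 is a long-established human cell line of acute promyelocytic leukaemia; it expresses the fusion protein PML-RARA, and RA makes it mature towards granulocytes. The members are the loci of the treatment table whose test of this pair of libraries did not fail, 35050 of 35856. Among them, 16970 are protein-coding genes with 1 locus, and the 9646 of these with at least 1 FPKM (fragments scaled to transcript length and library depth) in 1 of both libraries were compared. The treatment set holds 5 libraries, 1 each of cells given DMSO (the vehicle), MC_2580, RA at 0.01 uM, RA at 1 uM, or both MC_2580 and RA at 0.01 uM (the combination below). The labels call MC_2580 an inhibitor of the histone demethylase LSD1 and give no dose for it. A second set, with no drug named, holds 2 libraries of NB4 cells labelled as LSD1 knockout (KO) and 2 of wild-type (WT) cells, and serves here to show how far libraries of like cells differ.

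RA enters the nucleus and binds the retinoic acid receptors (RARs), which sit on DNA with retinoid X receptors (RXRs) at paired copies of a short hexamer. Without ligand these receptors hold corepressors, and with it they exchange them for coactivators. In promyelocytic leukaemia the PML-RARA fusion keeps such genes repressed until RA is raised, and the cells then take on granulocyte genes. Cells also clear RA themselves, through the CYP26 enzymes, whose genes are RAR targets.

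Each dose has 1 library, so no gene has a replicate check or a p-value, and calls of higher and lower rest on size alone, with 2-fold on the FPKM + 1 scale as the threshold. By that rule 72 genes were higher at 1 uM than at 0.01 uM (0.746% of those tested) and 17 were lower (0.176%), 89 in either direction (0.923%). The same rule marked 381 of 9931 genes between WT 1 and WT 2 (3.84%) and 343 of 10048 between KO 1 and KO 2 (3.41%), so the count of genes between the doses was smaller than that between libraries of like cells in the other set. The median log2 difference over all genes tested was 0.04. In the authors' deposited table, which also sets 1 library against another, 55 of the 9646 genes are marked as different between the doses (0.57%), 44 higher and 11 lower at 1 uM. Of the 72 higher genes 38 carry that mark, and of the 17 lower genes 8.

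Against DMSO, 477 genes were higher at 0.01 uM (4.9%) and 271 lower (2.78%), while 642 were higher at 1 uM (6.56%) and 264 lower (2.7%). No gene was 2-fold above DMSO at 1 dose and 2-fold below it at the other. From the spacing of low values, 1 FPKM was estimated to stand for 1.22 times as many reads at 1 uM as at 0.01 uM. Of the 1946 loci used, 7.09% lay at that ratio. By this estimate low values were slightly less finely resolved at the lower dose. The 10 highest loci held 54.0% to 65.7% of each treatment library's FPKM sum. The myeloid markers were present at both doses: MPO, myeloperoxidase, stood at 2678 FPKM at 0.01 uM and 2454 at 1 uM, CD33 at 42.7 and 44.3, and PRTN3, proteinase 3, at 762 and 966, while ELANE, neutrophil elastase, was near 0 (0.128 and 0.0263). Over all loci rather than protein-coding genes, 482 of 13342 passed 2-fold (3.61%), of which 313 were listed at 0 in 1 library and 40 were snoRNAs.

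**Figure D1:**
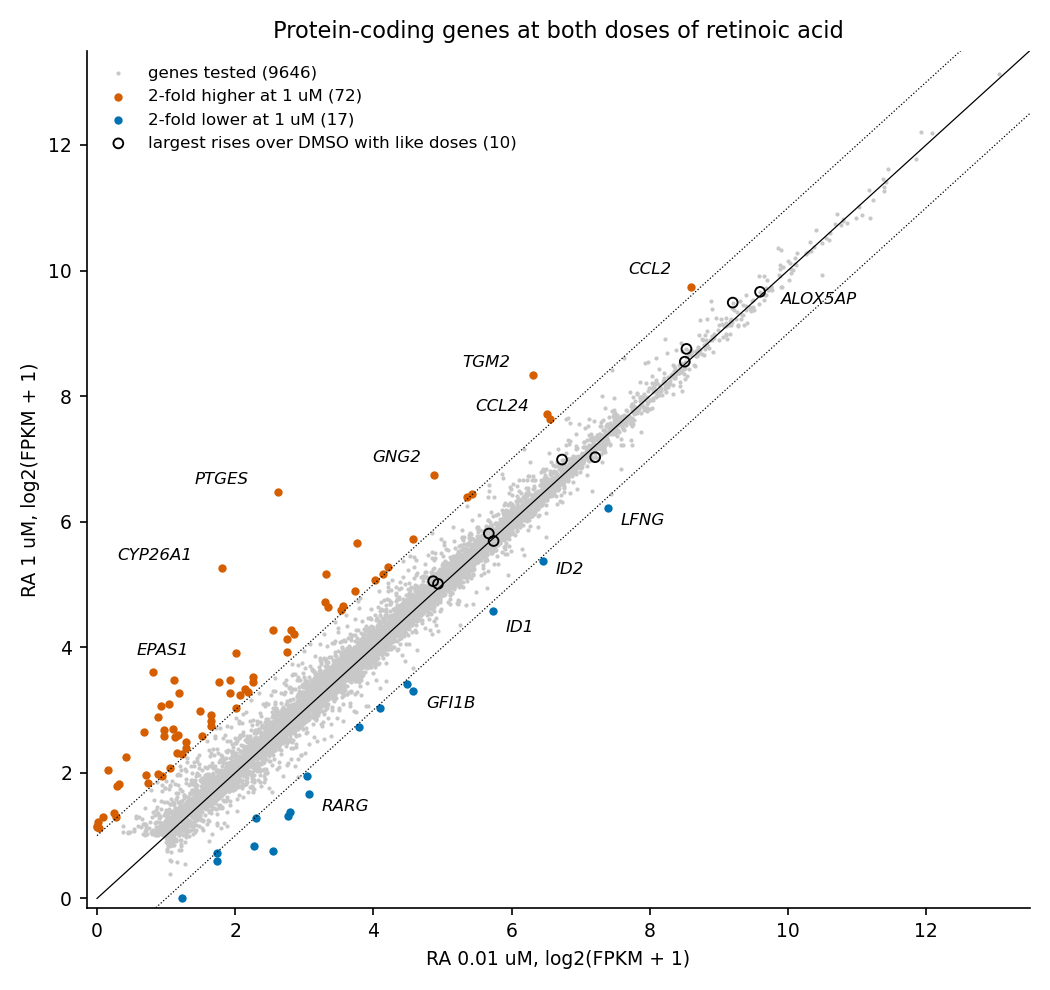
Levels of the 9646 protein-coding genes at RA 0.01 uM (horizontal) and 1 uM (vertical), both as log2(FPKM + 1), 1 library a dose. The solid line marks equal levels and the dotted lines 2-fold; 72 genes lie above the upper dotted line and 17 on or below the lower one, while rings mark 10 genes with large rises over DMSO that sit near the line of equal levels.

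The largest difference among RA's own machinery was in the genes that clear or sense it. CYP26A1 (chr10:94823222-94827637 in hg18), an enzyme that oxidises RA, stood at 0.0396 FPKM in DMSO, 2.49 at 0.01 uM, 37.4 at 1 uM and 14.2 in the combination. It was 3.46 higher on the log2 scale at 1 uM than at 0.01 uM, a ratio of 15. RARB (chr3:25190893-25614424), the RAR gene known for being induced by RA itself, stood at 0.156 FPKM in DMSO, 1.07 at 0.01 uM, 7.51 at 1 uM and 1.66 in the combination, a log2 difference of 2.04 between the doses. Both genes were near 0 in DMSO and in all 4 libraries of the knockout set, where libraries of like cells differed by at most 0.06 for CYP26A1 and 0.09 for RARB. That small spread is one between unstimulated cells and not between libraries of RA-treated cells.

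The known response element of RARB is a pair of direct hexamers 5 bases apart, so the promoters of the called genes were searched for it. The hexamer AGGTCA, or AGTTCA, or GGGTCA, or GGTTCA, was searched as a pair of direct copies, alike or not, with 1, 2 or 5 bases between them, on both strands, in the 250 bases before each RefSeq start site (GRCh38.p14). At 5 bases, 11 of 19903 promoters held a pair (0.0553%), and 8 of 11572 promoters of the genes tested (0.0691%). Among the 72 higher genes 54 had an entry, with 79 promoters, of which 3 held a pair (3.8%), those of RARB, CYP26A1 and BATF2. The spacing of 5 bases was taken from RARB, itself a higher gene whose hexamers are among those searched. Its match was therefore fixed beforehand, and the 3.8% is no measure of an excess over all promoters. None of 16 promoters of the 13 lower genes with an entry held one. At 1 and 2 bases, 18 and 5 of all promoters held a pair, and 0 of those of the higher or lower genes. The matches are shown because they lie beside genes that differed between the doses; a match describes letters and not a bound site. The hexamers are in capitals, each sequence reads along the strand on which its pair lies, and the last line is the whole 250-base RARB promoter, chr3:25428013-25428262 on the plus strand, in which the pair lies 53 to 37 bases before the start.
RARB, chr3:25428204-25428232, plus strand: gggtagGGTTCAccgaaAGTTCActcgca
CYP26A1, chr10:93073797-93073825, minus strand: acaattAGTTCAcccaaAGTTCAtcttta
BATF2, chr11:64990284-64990312, minus strand: aagcagAGTTCAtgtgaGGGTCAggaagg
RARB promoter: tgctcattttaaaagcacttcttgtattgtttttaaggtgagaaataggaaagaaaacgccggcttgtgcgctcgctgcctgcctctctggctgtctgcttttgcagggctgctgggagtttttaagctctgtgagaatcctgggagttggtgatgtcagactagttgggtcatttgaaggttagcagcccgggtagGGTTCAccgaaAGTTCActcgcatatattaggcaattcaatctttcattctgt

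The pair lies on the gene's own strand in RARB and, 29 to 13 bases before the start, in BATF2. In CYP26A1 it lies on the opposite strand, 90 to 74 bases before the start. RARB and CYP26A1 share the second hexamer, AGTTCA, and BATF2 has it as its first. BATF2, a basic leucine zipper transcription factor, was low throughout, at 0.92 FPKM at 0.01 uM and 2.85 at 1 uM, a log2 difference of 1.01.

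The other receptors did not follow RARB. RARG (chr12:51890621-51912303) stood at 0.135 FPKM in DMSO, 7.42 at 0.01 uM and 2.17 at 1 uM, so it was 1.41 lower on the log2 scale at the higher dose, although still above DMSO; its value in the combination is missing because those tests failed. RARA, the receptor gene fused in this leukaemia, stood at 11.5, 11.4 and 13.7 FPKM in DMSO, 0.01 uM and 1 uM. The coactivator NCOA3 stood at 8.02, 23.5 and 34.7 FPKM, a log2 dose difference of 0.54, and the corepressor NCOR1 differed by 0.11. Over the 11 receptors and coregulators tested, 1 was higher, 1 lower and the median difference was 0.13, beside 0.04 for all genes. Between WT 1 and WT 2, and between KO 1 and KO 2, the median of this list was larger, at 0.33 in size in each.

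Among 10 genes of retinoid metabolism and binding, 2 were higher, 0 lower and the median was 0.22. Over all genes tested 0.746% were higher and 0.176% lower. Between WT 1 and WT 2 the median of this list was 0.27 in size, and between KO 1 and KO 2 it was 0.29, both larger than between the doses. CYP26B1, the second RA-clearing enzyme, stood at 0.0444 FPKM in DMSO, 6.21 at 0.01 uM and 17.6 at 1 uM, and so differed by 1.37 between the doses, against 3.46 for CYP26A1. DHRS3, which turns retinaldehyde back to retinol, followed at 1.14, 50.0 and 95.2 FPKM, a difference of 0.92, just short of 2-fold. STRA6, a receptor for retinol-binding protein, stood at 0.133, 1.73 and 3.70 FPKM. DHRS9 differed by -0.14 between the doses, at 127 and 115 FPKM, although it stood at 13.3 FPKM in DMSO. The RA-binding protein gene CRABP2 was near 1 FPKM in all 3 libraries (1.00, 1.14 and 0.94).

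Of 34 genes listed as RA targets in promyelocytic leukaemia, 27 were above 0 on the log2 dose difference, 6 were called higher and 2 lower, with a median of 0.41. Between WT 1 and WT 2 the median of this list was 0.30 in size, and between KO 1 and KO 2 it was 0.15. The list contains CYP26A1 and RARB. TGM2 (chr20:36190280-36227114), tissue transglutaminase, a classical RA-induced gene of these cells, stood at 0.0609 FPKM in DMSO, 78.5 at 0.01 uM, 322 at 1 uM and 223 in the combination. It thus rose far above DMSO at the low dose and was still 2.02 higher on the log2 scale at the high dose. The chemokine genes CCL2 and CCL24 stood at 385 and 93.5 FPKM at 0.01 uM and at 854 and 197 at 1 uM, differences of 1.15 and 1.07. BTG2, an antiproliferative gene, stood at 3.03 and 7.21 FPKM. Close below the threshold lay CEBPE, a transcription factor of late granulocyte maturation, with 37.1 FPKM in DMSO, 175 at 0.01 uM and 341 at 1 uM (0.96), and ASB2 with 50.2 and 89.1 (0.82). At the other end ID1 and ID2 were lower at 1 uM, and CEBPB lay just inside 2-fold, at 172 and 85.6 FPKM. CD52 and IRF1 differed by 0.04 and 0.05.

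The gene with the largest dose difference was PTGES (chr9:131540433-131555165), prostaglandin E synthase, which makes prostaglandin E2. It was listed at 0 FPKM in DMSO and stood at 5.16 at 0.01 uM, 87.8 at 1 uM and 25.7 in the combination, a log2 difference of 3.85 and a ratio of 17.0. No other eicosanoid enzyme was called: of 9 tested, 1 was higher, 0 lower and the median was 0.06. PTGS1, the cyclooxygenase upstream of PTGES, stood at 2.2 FPKM in DMSO, 27.7 at 0.01 uM and 17.5 at 1 uM, a difference of -0.64. ALOX5AP, the 5-lipoxygenase activating protein needed for leukotriene synthesis, stood at 773 and 808 FPKM.

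EPAS1 (chr2:46378067-46467339), which encodes the hypoxia-inducible factor HIF-2alpha, stood at 0.0566 FPKM in DMSO, 0.75 at 0.01 uM, 11.2 at 1 uM and 1.66 in the combination, a log2 difference of 2.80. THBS1 (chr15:37660572-37862331), thrombospondin 1, stood at 0.611, 1.16, 10.2 and 14.5 FPKM in the same order, a difference of 2.37, with the locus FSIP1 overlapping it. PALLD, an actin-binding protein, stood at 0.153, 0.853, 6.44 and 13.1 FPKM, a ratio of 7.55 between the doses. ABCA1, the cholesterol exporter, stood at 3.63, 3.03, 14 and 5.30 FPKM (1.89). For EPAS1, THBS1, PALLD and ABCA1 the 0.01 uM library was closer to DMSO than to 1 uM, and EPAS1 and ABCA1 in the combination were also below their levels at 1 uM. Between libraries of like cells the largest differences were 0.04 for EPAS1, 0.59 for THBS1, 0.45 for PALLD and 0.65 for ABCA1. In the knockout set EPAS1 reached at most 0.0389 FPKM and PALLD 0.689, levels at which the FPKM + 1 scale keeps a spread small. These spreads are again between unstimulated cells and not between libraries of RA-treated cells.

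**Figure D2:**
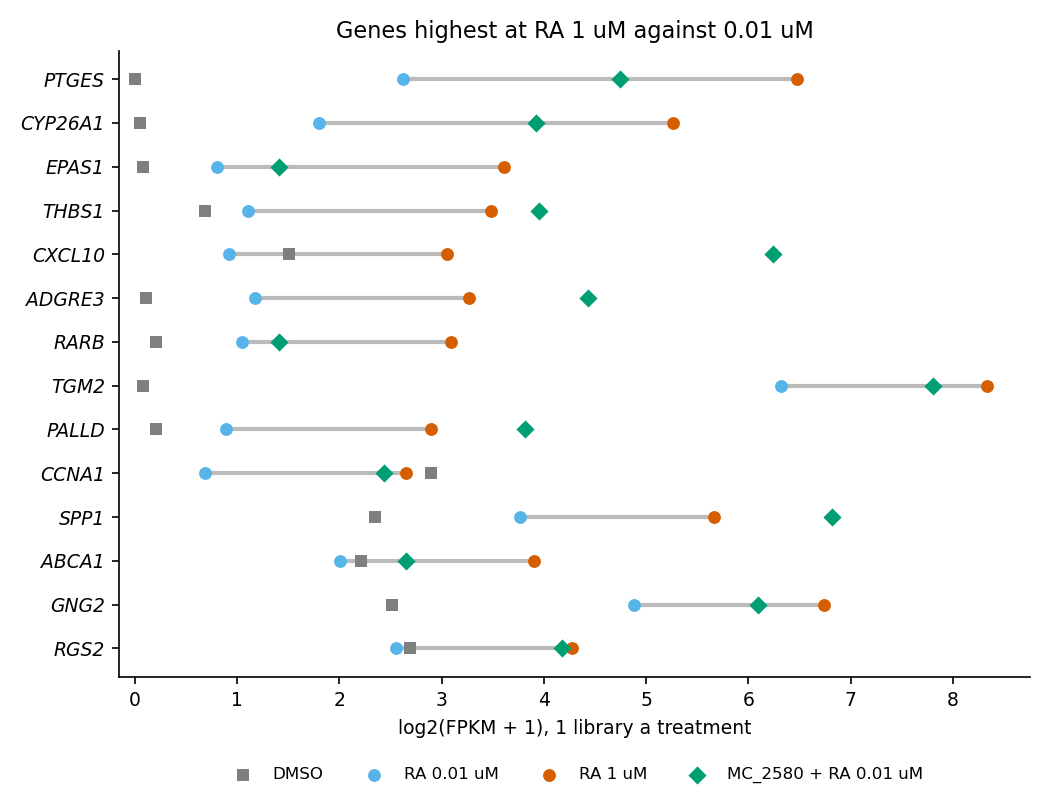
Genes with the largest difference among those of at least 5 FPKM at 1 of both doses, as log2(FPKM + 1) in 4 libraries; squares are DMSO, circles the RA doses joined by a grey line, and diamonds MC_2580 with RA at 0.01 uM. PTGES, CYP26A1 and TGM2 were near 0 in DMSO and separate the doses, whereas CCNA1 was lowest at 0.01 uM.

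Genes for adhesion and signalling at the granulocyte surface made up a further group. Of 29 tested, 4 were higher, 0 lower and 24 lay above 0, with a median of 0.30 (0.32 and 0.26 in size between like libraries). CEACAM1, an adhesion receptor of neutrophils, stood at 0.015 FPKM in DMSO, 1.22 at 0.01 uM, 3.99 at 1 uM and 11.3 in the combination (1.17), and the tetraspanin CD53 at 38.5, 41.9, 85.7 and 238 FPKM (1.01). FCGR2B, an inhibitory Fc receptor, was also called at 2.14 and 6.57 FPKM (1.27), but libraries of like cells differed by 2.59 for it, and its near-identical relatives can share reads. ITGAM, the CD11b chain used as a maturation marker, fell short of the threshold at 2.68, 22.9, 42.5 and 136 FPKM (0.86). ITGB2, its partner, stood at 280 and 346 FPKM at the low and high dose, and ITGAX at 41.6 and 44.8.

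Some of the called genes that follow, among them FFAR2 and RGS16, were named after their values were seen. ADGRE3 (listed as EMR3, chr19:14591052-14646730), an adhesion receptor of myeloid cells, stood at 0.0819 FPKM in DMSO, 1.27 at 0.01 uM, 8.62 at 1 uM and 20.6 in the combination, a log2 difference of 2.09. GNG2 (chr14:51396800-51506267), a G-protein gamma subunit, stood at 4.73, 28.5, 106 and 67.3 FPKM (1.86). FFAR2, a receptor for short-chain fatty acids, stood at 0.0214, 2.78, 10.2 and 11.9 FPKM (1.57). Its neighbours FFAR3 and GPR42 were called too, at 3.13 and 1.46 FPKM at 1 uM, but are near-identical copies whose reads may be split. RGS2, RGS16 and RGS1, which switch off G-protein signals, were higher by 1.72, 1.47 and 1.18. RGS16 stood at 45.8 FPKM in DMSO, 6.0 at 0.01 uM, 18.3 at 1 uM and 7.42 in the combination, so that both doses lay below DMSO. RGS2 stood at 5.44, 4.86, 18.3 and 17.0 FPKM, so that the 0.01 uM library lay at the level of DMSO and the 1 uM library above both. Of 13 chemokine and chemoattractant receptors tested, 12 lay above 0, 2 were higher, among them CCR3 at 1.45 and 4.61 FPKM, 0 were lower and the median was 0.38, beside 0.36 and 0.10 in size between like libraries. CXCR4 stood at 86.4 and 113 FPKM, and CXCR2 at 4.40 and 5.22.

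Chemokine ligands spread more widely. Of 12 tested, 3 were higher (CCL2, CCL24 and CXCL10), 0 lower and the median was 0.56, but between WT 1 and WT 2 this list had a median of 1.32 in size and between KO 1 and KO 2 one of 1.11. CXCL10 (chr4:77161297-77163674), an interferon-induced chemokine, stood at 1.84 FPKM in DMSO, 20.0 with MC_2580, 0.90 at 0.01 uM, 7.32 at 1 uM and 74.8 in the combination. Its dose difference of 2.13 is smaller than the 2.36 by which libraries of like cells differed. For CCL2 and CCL24 those differences were 0.15 and 0.84. CXCL8, the neutrophil chemoattractant interleukin-8, stood at 57.9 and 103 FPKM (0.81) and CCL20 at 23.6 and 40.8 (0.76). CCL5 stood at 362 and 344 FPKM. SPP1, osteopontin, a secreted adhesion protein, stood at 4.08 FPKM in DMSO, 12.6 at 0.01 uM and 49.8 at 1 uM, a difference of 1.90 where like libraries differed by 1.96. CCL4L2, at 3.77 and 10.5 FPKM, has near-identical copies that can share its reads.

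Interferon-response genes leaned to the higher dose without passing the threshold. Of 40 tested, 39 lay above 0 but only CXCL10 was called higher, and the median was 0.39, beside 0.04 for all genes, of which 5855 of 9646 lay above 0. OAS1, an antiviral enzyme, stood at 0.944 FPKM in DMSO, 7.01 at 0.01 uM, 14.4 at 1 uM and 88.6 in the combination (0.94 between the doses). OAS2 stood at 3.02 and 6.31 FPKM (0.86), GBP2 at 10.2 and 18.9 (0.82) and IFIT3 at 6.85 and 12.5 (0.78). The list's median between WT 1 and WT 2 was 0.77 in size and that between KO 1 and KO 2 0.26, so this lean was not larger than the difference between the WT libraries.

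Granule and oxidase genes showed little dose difference, and where they moved from DMSO most of the change was seen at 0.01 uM. Of 7 NADPH oxidase genes, the complex with which neutrophils make superoxide, 0 were higher or lower between the doses and the median was 0.15. NCF1, the p47 subunit, whose pseudogene copies can share reads, stood at 2.72 FPKM in DMSO, 929 at 0.01 uM and 1305 at 1 uM (0.49). CYBB, the catalytic subunit, stood at 10.7, 112 and 201 FPKM (0.84). Of 20 primary granule genes 0 were called and the median was 0.01, with a spread from -0.67 for the defensin DEFA1 to 0.71 for BPI. DEFA3, nearly identical in sequence to DEFA1, stood at 1447 and 979 FPKM, and BPI, the bactericidal protein, at 114 and 188. CTSG, cathepsin G, fell from 58.6 FPKM in DMSO to 10.3 at 0.01 uM and stood at 7.01 at 1 uM. Of 13 secondary and tertiary granule genes 1 was higher, CFP, the complement factor properdin, at 39.9 and 82.7 FPKM (1.03), and 0 were lower. At each dose only 4 of these 13 were 2-fold above DMSO and 0 were below it. Another 10 genes of this list, among them LTF, LCN2 and OLFM4, were under 0.1 FPKM at both doses. Of 10 S100 genes and 18 pattern recognition receptors none was called, with medians of 0.11 and 0.16. As 0.923% of all genes tested were called in either direction, the lack of calls in these short lists says little by itself.

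The genes that were lower at 1 uM included several regulators that rose over DMSO at the low dose. GFI1B (chr9:134810753-134856895), a transcriptional repressor that binds LSD1, stood at 1.87 FPKM in DMSO, 22.9 at 0.01 uM, 8.83 at 1 uM and 95.4 in the combination, a log2 dose difference of -1.28. Libraries of like cells differed by 1.21 for it. LFNG (chr7:2518689-2535334), which adds sugars to Notch receptors, stood at 2.37, 168, 73.0 and 185 FPKM (-1.19). ID1 (chr20:29656753-29657974) and ID2 (chr2:8736426-8742034) block other helix-loop-helix transcription factors. ID1 stood at 0.226, 52.0, 22.8 and 58.6 FPKM (-1.16), and ID2 at 1.8, 86.6, 40.3 and 65.1 FPKM (-1.09). In each of these genes both RA libraries lay above DMSO and the 0.01 uM library lay above that of 1 uM. The combination, which holds the lower RA dose, also lay above the 1 uM library in all 4. With MC_2580 alone GFI1B stood at 6.71 FPKM, above DMSO, so its combination level does not describe the RA dose by itself. LFNG, ID1 and ID2 stood at 2.99, 0.57 and 1.86 FPKM with MC_2580 alone. The locus of GFI1B overlaps another, RP11-415H23.4.

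CEBPB, a transcription factor of emergency granulopoiesis, stood at 5.36 FPKM in DMSO, 172 at 0.01 uM, 85.6 at 1 uM and 167 in the combination. SOCS1, a brake on cytokine signals, stood at 0.808, 6.49, 2.80 and 11.5 FPKM (-0.98), and DUSP5 (listed as DUSP), a phosphatase of ERK kinases, at 1.75, 12.8, 5.65 and 22.2 FPKM (-1.05). BIK, a death-promoting protein of the BCL2 family, stood at 12, 37.1, 19.5 and 47.7 FPKM (-0.90), where like libraries differed by 1.06. CA2, carbonic anhydrase 2, stood at 36.8 FPKM in DMSO, 21.4 at 0.01 uM, 9.67 at 1 uM and 6.20 in the combination (-1.07). Both RA libraries thus lay below DMSO, and libraries of like cells differed by 0.79 for CA2. PLEKHF2 and ASAP2 lay at 16.1 and 7.24 FPKM at 0.01 uM and at 7.17 and 2.86 at 1 uM. FSD1L, CCDC107 and SNAP47, each with another locus overlapping it, differed by -1.46, -1.42 and -0.89. Among the 17 called genes 6 stayed below 5 FPKM at both doses (CHRNA3, DLX2, HAL, RHCE, TAC4 and TPPP3), 7 overlap another locus, and 0 passed 4-fold.

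**Figure D3:**
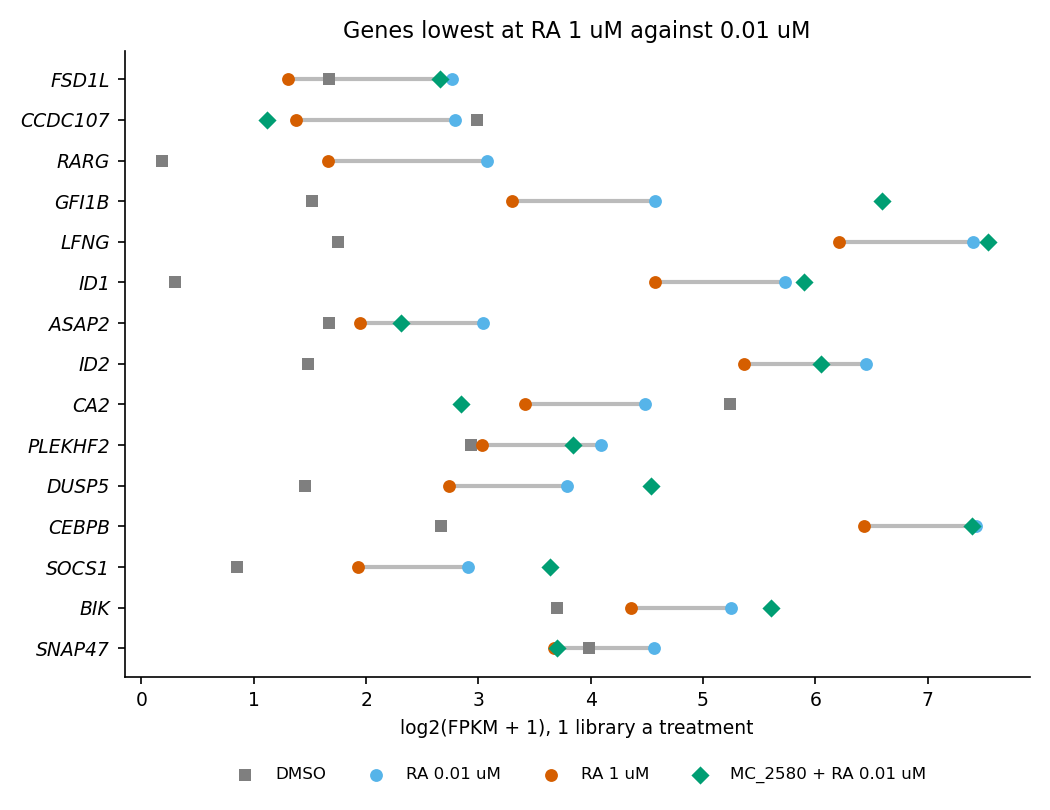
The 15 lowest genes at RA 1 uM against 0.01 uM among those of at least 5 FPKM at 1 of both doses, as log2(FPKM + 1); squares are DMSO, circles the RA doses joined by a grey line, and diamonds MC_2580 with RA at 0.01 uM. RARG has no value in the combination; in LFNG, ID1, ID2, CEBPB and GFI1B both RA libraries lie above DMSO, and the 0.01 uM library above that of 1 uM.

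Over the 41 myeloid transcription factors tested, 1 was higher, 3 lower (GFI1B, ID1 and ID2) and 28 lay above 0, with a median of 0.13. SPI1, which encodes PU.1, stood at 70.5, 224 and 262 FPKM, CEBPA at 31.4, 36.0 and 25.1, and GFI1 at 67.1, 41.4 and 55.3. Of 23 genes of the LSD1 complex and its partners 0 were higher and 1, GFI1B, was lower, and KDM1A, the LSD1 gene (listed as AOF2), stood at 52.0 and 51.0 FPKM.

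Proliferation genes lay at similar levels at both doses. Of 38 cell cycle genes, 38 DNA replication genes and 31 genes of MYC and ribosome biogenesis none was called in either direction. Their medians were 0.02, -0.01 and -0.10. Over all genes tested 0.923% were called, so the lack of calls in lists as short as these and those below says little by itself. All members of the cell cycle list lay between -0.22 and 0.23 and those of the replication list between -0.12 and 0.25. Of 34 apoptosis regulators and 24 genes of NF-kB and inflammatory cytokines none was called, with medians of 0.18 and 0.27. Of 22 cholesterol synthesis genes and 18 TNF ligands and receptors none was called, with medians of 0.03 and 0.24. Of 11 genes of haemostasis and fibrinolysis 1 was higher, SERPINB2, an inhibitor of plasminogen activators, at 0.33 and 3.74 FPKM, 0 were lower and the median was 0.19. Among 16 inhibitors of growth 1 was higher, BTG2, and CDKN1A and CDKN2D stood at 2.29 and 100 FPKM at 0.01 uM and at 3.12 and 76.6 at 1 uM. CCNA1, cyclin A1, the higher gene of the stem and progenitor list, stood at 6.43 FPKM in DMSO, 0.608 at 0.01 uM, 5.27 at 1 uM and 4.41 in the combination (1.96), so only the 0.01 uM library was low.

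**Figure D4:**
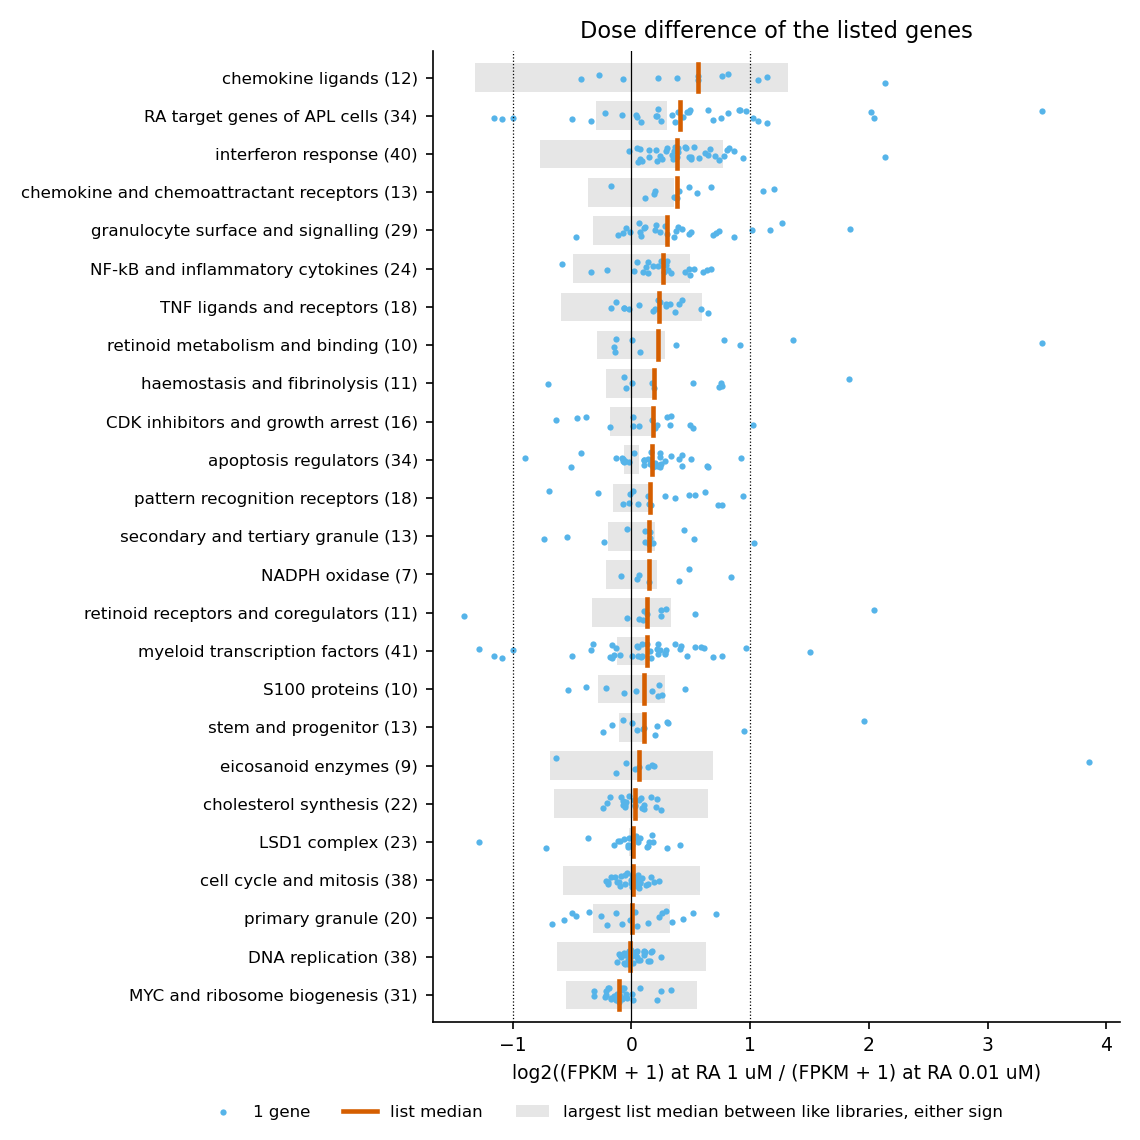
Log2 dose difference of each listed gene (points) with the list median (vertical bar) for the pathway lists with at least 7 genes tested, whose number is in brackets; dotted lines mark 2-fold, and grey boxes reach to the larger list median between like libraries, drawn on both sides of 0. The medians run from -0.10 to 0.56, and most lie inside their grey box.

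Of the 31 gene lists, 23 had a median above that of all genes, but in only 6 was the median larger in size than in both comparisons of like libraries. These were the RA targets, the chemoattractant receptors, the myeloid transcription factors, the stem and progenitor genes, the growth inhibitors and the apoptosis regulators. The margin was narrow for the chemoattractant receptors (0.385 beside 0.363) and the myeloid transcription factors (0.131 beside 0.119). It was also narrow for the stem and progenitor genes (0.108 beside 0.106) and the growth inhibitors (0.187 beside 0.182). With the dose difference rescaled to a median of 0, these medians were 0.349, 0.095, 0.071 and 0.151, each below its like-library value. Markers of other cell types were examined because several higher genes belong to such lists. Of 9 monocyte and macrophage genes tested 1 was higher and the summed level of the list was 111 FPKM at 0.01 uM and 118 at 1 uM, with CD163, MSR1 and C1QA among 11 genes under 0.1 FPKM at both doses. Of 11 eosinophil, basophil and mast cell genes 1 was higher (CCR3), the sum was 722 and 680 FPKM, and IL5RA, FCER1A and CPA3 were under 0.1 FPKM. SELP, P-selectin, was the higher one of 2 megakaryocyte and platelet genes tested, at 0 FPKM in DMSO, 1.14 at 0.01 uM and 5.46 at 1 uM, while PF4, PPBP and GP9 were under 0.1 FPKM and the sum was 14 and 18.0. COL1A1, a collagen gene, was the higher one of 5 fibroblast, endothelial and epithelial genes tested, at 0.0209 and 1.18 FPKM, with the sum at 88.1 and 85.7. None of 6 lymphoid and 3 erythroid genes was called. In these bulk libraries a change in the share of cells and a change in RNA per cell cannot be told apart.

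The genes that differed from DMSO at 1 uM were sorted by what the low dose did. These comparisons share the DMSO library and each RA library serves in more than 1 of them, so the counts are descriptions. Of the 642 genes 2-fold above DMSO at 1 uM, 392 (61.1%) were also 2-fold above it at 0.01 uM with less than 2-fold between the doses. Another 31 (4.83%) were above DMSO at both doses and higher again at 1 uM, which is called graded here, and 29 (4.52%) were past 2-fold over DMSO at 1 uM alone and 2-fold higher there than at 0.01 uM. In 6 (0.935%) both doses were above DMSO and the 0.01 uM library was 2-fold above that of 1 uM; these are RARG, GFI1B, LFNG, ID1, ID2 and DUSP5. The other 184 (28.7%) were 2-fold above DMSO at 1 uM alone with less than 2-fold between the doses. Graded genes include PTGES, CYP26A1, TGM2, CCL2 and GNG2, and those past 2-fold over DMSO at 1 uM alone on the FPKM + 1 scale, with the doses 2-fold apart, include EPAS1, RARB, THBS1, ABCA1 and RGS2. That scale holds low genes back: with 0.1 FPKM added in place of 1, 16 of the 29 genes were also 2-fold above DMSO at 0.01 uM, among them EPAS1 and RARB, by 2.44 and 2.19 on the log2 scale. THBS1 was then above DMSO by 0.82 at 0.01 uM, whereas ABCA1 and RGS2 lay at -0.26 and -0.16. Of the 264 genes 2-fold below DMSO at 1 uM, 202 reached 1 FPKM at 1 of both doses; of these, 159 (78.7%) were also below it at 0.01 uM with less than 2-fold between the doses, 0 were graded, 3 were past 2-fold at 1 uM alone with the doses 2-fold apart (CA2, CCDC107 and RHCE) and 39 (19.3%) were past it at 1 uM alone with less than 2-fold between the doses. The last, RGS16, was below DMSO at both doses and lower at 0.01 uM than at 1 uM.

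**Figure D5:**
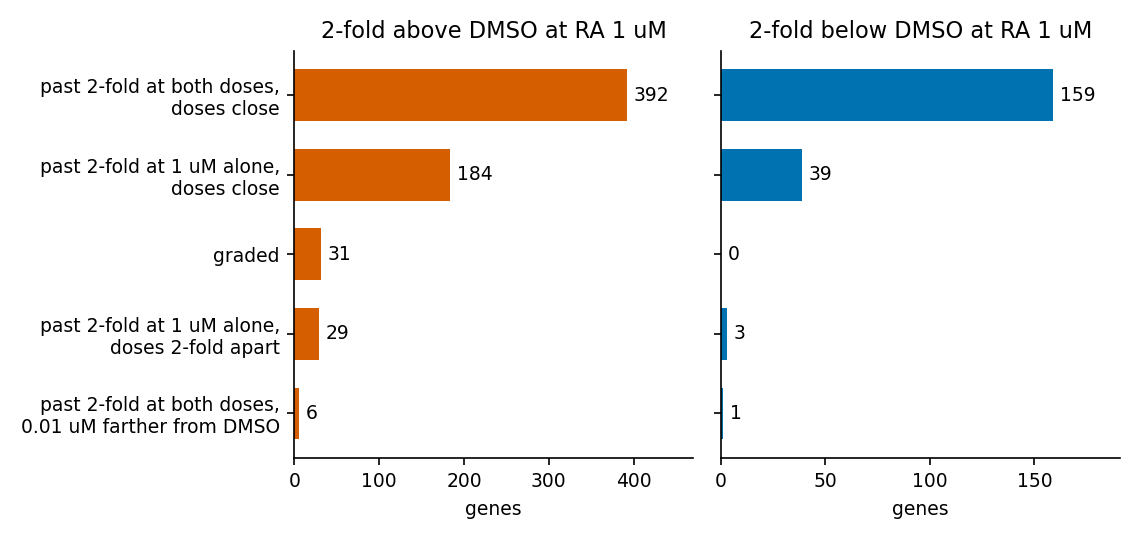
Number of protein-coding genes 2-fold above (left) or below (right) DMSO at RA 1 uM, by what was seen at 0.01 uM; bars start at 0. Most genes, 392 of 642 and 159 of 202, were past 2-fold at both doses with less than 2-fold between them, 31 and 0 were graded, 29 and 3 were past 2-fold at 1 uM alone and 2-fold apart between the doses, and in 6 and 1 the 0.01 uM library was 2-fold farther from DMSO than that of 1 uM.

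The largest responses seen alike at both doses were taken as the genes with the largest rise over DMSO whose doses lay closest to each other by the rule for named genes. ALOX5AP stood at 2.81 FPKM in DMSO, 773 at 0.01 uM and 808 at 1 uM. The calcium-binding alarmins S100A9 and S100A8 stood at 2.44 and 0.921 FPKM in DMSO, 369 and 105 at 0.01 uM, and 430 and 126 at 1 uM. G0S2, an inhibitor of fat breakdown, stood at 6.95, 588 and 718 FPKM, and CD52, a surface glycoprotein whose locus overlaps UBXN11, at 3.93, 363 and 373. PLCB2, a phospholipase that acts behind chemokine receptors, stood at 3.05, 147 and 129 FPKM. CCDC88B, TOGARAM2 (listed as FAM179A), CD79A and IFI30, a lysosomal thiol reductase, completed the 10, with 52.4, 28.2, 50.0 and 29.6 FPKM at 0.01 uM and 50.7, 32.2, 55.2 and 31.2 at 1 uM. The 5 largest falls with like doses were CYTL1, a cytokine-like protein (201, 7.71 and 9.03 FPKM in DMSO, 0.01 uM and 1 uM), CST7, cystatin F (93.4, 12 and 10.7), HDC, which makes histamine (58.4, 6.27 and 6.94), IGFBP4, which binds insulin-like growth factors (87.0, 14.7 and 15.5), and ASS1, an enzyme of arginine synthesis (144, 30.0 and 27.3). None of these 15 is marked between the doses in the authors' deposited table. Between libraries of like cells CD52 differed by 2.42, CYTL1 by 1.67, HDC by 1.42 and G0S2 by 1.10.

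The comparison of the combination with DMSO shares no library with the dose contrast. The combination was 2-fold above DMSO in 938 genes (9.4%) and below it in 338 (3.39%). Of the 72 genes higher at 1 uM than at 0.01 uM, 53 were higher in the combination than in DMSO and 3 lower. Those counts are of 65 genes with at least 1 FPKM in 1 of these libraries, a floor that a low gene can pass through its level in the combination, so the share is read without it. With no floor, an alternative chosen after seeing the data, 53 of 70 genes with a value in both libraries were higher (75.7%), against 851 of 9570 of all genes tested (8.89%). Lower were 3 of the 70 (4.29%), against 290 of all (3.03%). The combination also holds RA at 0.01 uM, so the 75.7% does not describe MC_2580 by itself. With RA at 0.01 uM alone 31 of the 70 were 2-fold above DMSO, and at 1 uM 60 were. Taken the other way round, of 851 tested genes chosen for being 2-fold higher in the combination than in DMSO, 53 were higher at 1 uM than at 0.01 uM (6.23%) and 6 lower (0.705%), with a median dose difference of 0.26 and 649 above 0 (76.3%). Among the 290 genes chosen for being lower in the combination, 3 were higher (1.03%) and 2 lower (0.69%) at the high dose, with a median of -0.09. Of the 8385 genes within 2-fold of DMSO in the combination, 9 were higher (0.107%) and 6 lower (0.0716%), with a median of 0.03. Over all genes tested 0.746% were higher at 1 uM than at 0.01 uM and 0.176% lower.

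The combination level was not always above that of RA 1 uM. CXCL10, ADGRE3, THBS1, PALLD and SPP1 stood higher in the combination than at 1 uM, by the values given above, whereas PTGES, CYP26A1, EPAS1, RARB, TGM2, ABCA1 and GNG2 stood between the values of 0.01 uM and 1 uM. MC_2580 alone left PTGES, CYP26A1, EPAS1, RARB and TGM2 near 0, at 0.0245, 0.0178, 0.0557, 0.139 and 0.132 FPKM. MC_2580 alone was 2-fold above DMSO in 71 genes (0.735%). Of the 72 higher genes, 7 of the 70 with a value in both libraries were higher there, counted with no floor, against 47 of 9553 of all genes tested (0.492%). In the knockout set the mean of KO was 2-fold above the mean of WT in 251 genes (2.5%) and below it in 103 (1.03%). Of the 72 genes, 33 had at least 1 FPKM in KO or WT, and 3 of these were higher and 3 lower (9.09% each). Over all genes tested 144 of 9250 were higher (1.56%) and 91 lower (0.984%). A low gene can pass that floor through the group in which it is high, so these shares are not read as a result. Of the 17 genes lower at 1 uM, 15 had a value in both the combination and DMSO. With no floor 6 of these were above DMSO in the combination (40%) and 2 below (13.3%), against 8.89% and 3.03% of all genes tested.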

How the data were processed

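RNA was sequenced by the authors from NB4 cells, with TruSeq libraries per the labels' protocols. Build hg18 and the tools Cuffdiff, Cufflinks, TopHat2 2.0.10, TopHat 1.3.1 and CASAVA 1.8 are listed, per the submitters' processing notes, without roles. Annotation and scaling: not given in the sources used here. The values are FPKM per the file headers, and 1 was added to starts, which count from 0. An offset of 0.001 FPKM that the authors added in the knockout table was subtracted. The deposited p-value and q-value columns, the latter a score that can exceed 1, were used only through the authors' calls. The labels do not say that KO or WT libraries came from separate cultures.

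Loci whose test failed, listed at 0, were treated as missing; 43 values listed at 0 in this pair alone took the value of other pairs. Symbols were matched to RefSeq names on the same chromosome, for 19595 loci. Where 1 of both libraries reached 1 FPKM, log2((FPKM + 1)/(FPKM + 1)) was computed, which understates changes of low genes, and 2-fold set the call. Depth per library is unknown and no interval was computed.

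Named genes are the 15 highest and 15 lowest between the doses among those of at least 5 FPKM, the 10 largest rises and 5 largest falls over DMSO at 1 uM whose doses were under 1.25-fold apart, and list members as examples; a few of these genes are not reported here. The 31 lists hold 825 symbols, of which 515 were tested. The members and lists were chosen with earlier results of these data known. Called genes outside this rule, such as FFAR2, RGS16 and BATF2, were named after their values were seen. Calls were tested on simulated data with changes well past 2-fold in genes of at least 5 FPKM. That setting does not cover calls near 2-fold or genes of lower level. Alternatives were other pseudocounts, floors, thresholds and scalings, all loci, and the authors' calls. Scripts ran in Python 3.11.15 (matplotlib 3.10.9, numpy 2.4.6, pandas 2.3.3).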

Additional observations from a re-analysis of the deposited data

How the results depend on the processing

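No paired analysis was possible because each treatment has 1 library and the results come from no test. Against 72 higher and 17 lower genes, a pseudocount of 0.1 FPKM gave 130 and 27, one of 5 FPKM gave 22 and 4, a 4-fold threshold gave 9 and 0, all loci gave 258 and 224, and the authors' deposited calls gave 44 and 11. A floor of 5 FPKM gave 51 and 11. No floor left both counts as they were, and rescaling by the median or the upper quartile gave 65 and 19 each. Among genes above DMSO at 1 uM, the graded ones numbered 69 with a pseudocount of 0.1 FPKM. With a pseudocount of 5 FPKM, 247 genes were past 2-fold at both doses with the doses close, 9 were graded, 11 were past it at 1 uM alone with the doses apart and 110 at 1 uM alone with the doses close; at 4-fold these were 147, 2, 6 and 51, and the 6 genes with the 0.01 uM library above that of 1 uM fell to 0. The floor of 5 FPKM left 15 past 2-fold at 1 uM alone with the doses apart. No named gene past 2-fold changed its sign under these alternatives, and 3 of 31 list medians moved. That count leaves out the list medians, given above, that fell below their like-library values under rescaling. CEBPB and SOCS1 passed 2-fold lower with a pseudocount of 0.1 FPKM and under both rescalings, and 9 of the named genes past 2-fold fell below it with a pseudocount of 5 FPKM. Relative depth was only estimated and read totals are not known, so genes of a few FPKM cannot be given a counting error. With 1 library a dose, culture and dose cannot be told apart.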

Other observations

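A few genes stood 2-fold below DMSO at RA 0.01 uM and were 2-fold higher again at 1 uM. Besides CCNA1 these were SLC2A3, a glucose transporter (27.9 FPKM in DMSO, 12.2 at 0.01 uM, 28.9 at 1 uM and 30.4 in the combination), RGS16 (45.8, 6.0, 18.3 and 7.42), NKX3-2, a homeobox factor listed as BAPX1 (7.25, 2.15, 5.68 and 3.90), and the low genes RFPL3 and UCN, both of which overlap another locus. The reverse, a rise at 0.01 uM followed by a 2-fold lower level at 1 uM, was seen in 12 genes, which include RARG, GFI1B, LFNG, ID1, ID2 and DUSP5. For SLC2A3 and RGS16 libraries of like cells differed by 0.82 and 0.83 on the log2 scale, for NKX3-2 by 1.44 and for UCN by 1.36.

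EIF1B, a relative of a translation start factor, and AGO1 (listed as EIF2C1), which carries small RNAs, were among the more abundant genes with a 2-fold dose difference. EIF1B stood at 51.7 FPKM in DMSO, 90.0 at 0.01 uM, 209 at 1 uM and 104 in the combination, and AGO1 at 9.69, 22.7, 51.8 and 29.0. HIC1, a transcriptional repressor, and SMG6, a factor of RNA decay, lie beside each other on chromosome 17 and stood at 16.7 and 17.5 FPKM at 0.01 uM and at 35.0 and 37.8 at 1 uM. Without strand, reads near the border of both cannot be assigned with certainty.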
